A study of Homo sapiens with 4 samples.

Results

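The 10 genes described here encode enzymes and helpers that modify, fold or process collagen: the prolyl 4-hydroxylase subunits P4HA1, P4HA2 and P4HA3, the prolyl 3-hydroxylases P3H1 and P3H2, the lysyl hydroxylases PLOD1, PLOD2 and PLOD3, the chaperone gene SERPINH1 and the procollagen C-proteinase gene BMP1. They were taken by gene symbol, and all 10 were among the 17791 genes of the table and among the 14851 that reached 1 CPM in some library. CPM is a gene's count for every 1000000 counts of the library after scaling. Each of the 10 had at least 1 CPM in every library.

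RNA sequencing was done on engineered prostate cancer tissues (EPCaTs) and on both cell lines grown together in a flat (2D) culture. PC-3 is an established line of metastatic prostate cancer, and BJ-5ta is a line of telomerase-immortalised foreskin fibroblasts. In an EPCaT both lines, at a ratio of 5 PC-3 to 1 BJ-5ta, were enclosed in a gel of poly(ethylene glycol) joined to fibrinogen (PF). The 3 EPCaT groups were PF alone, PF+2%PEGDA and PF+3%PEGDA, where PEGDA is poly(ethylene glycol) diacrylate added in excess to change the mechanics of the gel, and all were taken on day 15 with no drug or other treatment. Each group is 1 library, made from more than 2 pooled tissues for an EPCaT and from 1000000 cells for the 2D coculture, whose cell ratio and culture time the labels do not give. BJ-5ta cells were kept under hygromycin in their own culture, and the EPCaTs were kept in PC-3 medium.

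Collagen chains are modified inside the endoplasmic reticulum before they fold into a triple helix. Prolyl 4-hydroxylase makes the 4-hydroxyproline that keeps the helix stable at body temperature, prolyl 3-hydroxylase modifies a few further prolines, and lysyl hydroxylases prepare lysines for sugars and for crosslinks. All of these enzymes need oxygen, iron, 2-oxoglutarate and ascorbate, and fibroblasts are the usual heavy users of the pathway in connective tissue.

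Total counts ran from 13760317 in PF+3%PEGDA to 15687912 in the PF EPCaT, and 1 count was worth 0.0600 to 0.0734 CPM. With 1 library per group there is no spread between replicates and no p-value. Ratios of a gene between libraries were therefore computed with a 95% Clopper-Pearson interval, which is not printed with each of them. It covers counting error only and treats each read as independent. Reads of amplified libraries without molecular identifiers are not independent molecules, so the interval may be too narrow even for that error. A gene is called higher or lower when it differs at least 2-fold and its interval excludes equality. The 3 comparisons with 2D share the 2D library, so they are not independent of each other.

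The members split against the 2D coculture. P4HA1 was called higher and SERPINH1 lower in all 3 EPCaTs, and the other 8 genes were called in 1 EPCaT or none. P4HA2 and PLOD2 were above 2D in each EPCaT, while P3H1, P3H2, PLOD3 and BMP1 were below it, mostly by less than 2-fold. The number of members called higher was 1 in the PF EPCaT (background over all genes tested 16.5%), 1 in PF+2%PEGDA (12.4%) and 2 in PF+3%PEGDA (12.1%). The number called lower was 2 in the PF EPCaT (background 12%), 1 in PF+2%PEGDA (9.45%) and 2 in PF+3%PEGDA (10.4%). Over all 3 EPCaTs, 1 member was higher (background 7.84%) and 1 lower (background 6.07%), so the counts were near the background. The median log2 ratio of the 10 genes was -0.29, -0.10 and -0.34 in the PF, 2% and 3% tissues, beside medians of all genes tested close to 0.

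At any size of difference, intervals that excluded equality put 3 members above 2D (P4HA1, P4HA2 and PLOD2) in every EPCaT. The background was 39.3% for PF, 35.5% for PF+2%PEGDA, 35.7% for PF+3%PEGDA and 24.1% for all 3 together. Below 2D there were 6 members in the PF EPCaT (background 37.6%) and 5 in each gel with PEGDA (35.8% at 2% and 35.9% at 3%). The same 5 were below it in every gel (background 25.6%). They were P3H1, P3H2, PLOD3, SERPINH1 and BMP1, and the sixth in PF was PLOD1. Such intervals hold counting error alone, so they separate libraries and not conditions.

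**Figure D1:**
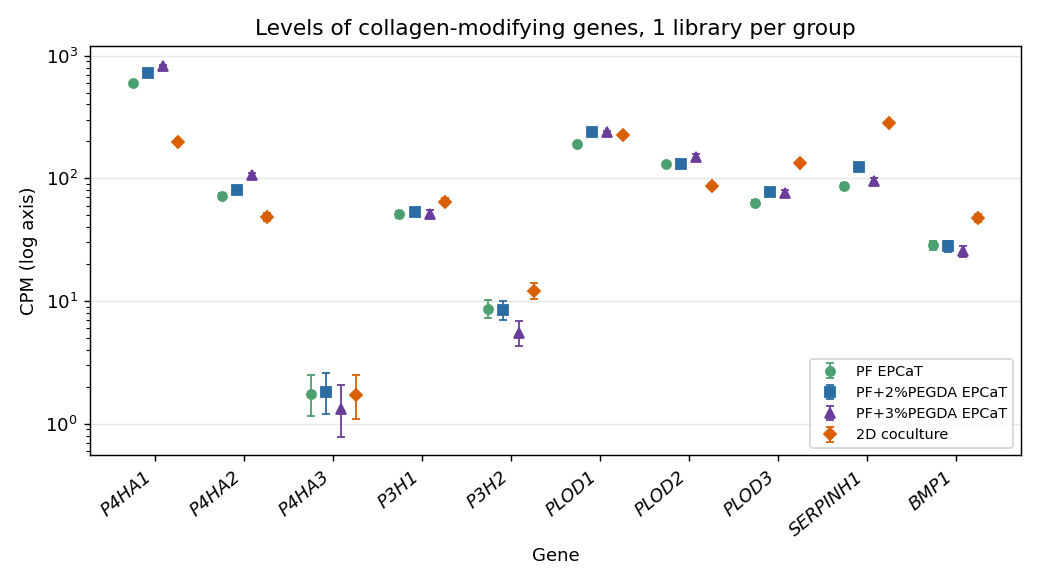
Levels of the 10 genes in CPM on a log axis, with 1 point per library and bars for the 95% counting interval. P4HA1 lies between 598 and 831 CPM in the gels and at 196 CPM in flat culture, and SERPINH1 at 86.3 to 123 CPM and 283 CPM.

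Among the catalytic subunits of prolyl 4-hydroxylase, P4HA1 stood apart from its paralogs. P4HA1 (chromosome 10, 73007217 to 73096974, minus strand, GRCh38), the main alpha subunit in most tissues, measured 598 CPM in the PF EPCaT, 725 CPM in PF+2%PEGDA, 831 CPM in PF+3%PEGDA and 196 CPM in 2D. The levels stood in the order of the PEGDA content among the tissues, and the 2D library was far below all of them. P4HA1 was 3.05-fold (interval 2.92 to 3.18), 3.70-fold (3.55 to 3.85) and 4.23-fold (4.07 to 4.41) higher than 2D in that order. These ratios lay at the 90.6, 94.9 and 95.6 percentiles of all genes tested.

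P4HA2 (chromosome 5, 132191838 to 132295315, minus strand) encodes the second alpha subunit, which is prominent in cartilage and bone. It measured 72.2, 80.3 and 105 CPM in the PF, 2% and 3% tissues and 48.6 CPM in 2D. Every tissue was above 2D, with the same order as for P4HA1, but the distances were smaller. Its log2 ratios were 0.57 (interval 0.43 to 0.71), 0.72 (0.59 to 0.86) and 1.12 (0.99 to 1.25). PF+3%PEGDA alone passed the size rule, at 2.17-fold, with an interval whose lower end lay just under 2-fold. Of the 50-base words in its protein-coding transcripts, 10.1% also occur in its antisense partner P4HA2-AS1, which overlaps 6.45% of the P4HA2 exon bases.

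P4HA3 (chromosome 11, 74235801 to 74311657, minus strand), the third alpha subunit, was barely detected. It had 29, 28, 18 and 25 counts in the PF, 2%, 3% and 2D libraries, or 1.74, 1.80, 1.32 and 1.70 CPM. No difference was detectable at this depth: the interval of its log2 ratio to 2D ran from -0.79 to 0.86 in the PF EPCaT, and from -1.33 to 0.57 with 3% PEGDA. Its exons overlap those of PPME1 on the opposite strand over 166 bases. PPME1 had 2213, 2108, 1945 and 1499 counts in the same order, and the library kit does not keep strand, so how many of the P4HA3 counts come from PPME1 was not tested.

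The mix of the family within each library does not depend on how libraries are scaled. P4HA1 took 89.0% (interval 88.4 to 89.6), 89.8% (89.3 to 90.4) and 88.6% (88.0 to 89.2) of the reads of the 3 genes in the PF, 2% and 3% tissues, and 79.6% (78.2 to 80.9) in 2D. P4HA2 took 10.7%, 9.94% and 11.3% in the tissues and 19.7% in 2D. The P4HA1 share was thus larger in every tissue than in the flat culture and varied little among the tissues. Per kilobase of transcript, the P4HA1 share was also larger in each tissue than in 2D with all 3 ways of setting gene length: the median coding transcript (70.9% to 73.5% against 55.3%), the longest (90.1% to 91.1% against 81.9%) and the merged exons (95.5% to 96.0% against 91.2%).

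The active enzyme pairs alpha subunits with P4HB, a protein disulfide isomerase that has other roles as well. P4HB measured 1081, 1348 and 1529 CPM in the PF, 2% and 3% tissues and 1859 CPM in 2D, lower in the tissues by less than 2-fold. For each 100 reads of P4HB there were 55.3, 53.8 and 54.3 reads of P4HA1 in the PF, 2% and 3% tissues, with intervals between 52.6 and 56.7, and 10.5 (10.15 to 10.96) in 2D. The ratio was thus nearly the same in all 3 gels, since both genes stood in the order of the PEGDA content, and far lower in the flat culture. Such a ratio compares libraries and not genes, which differ in length.

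**Figure D2:**
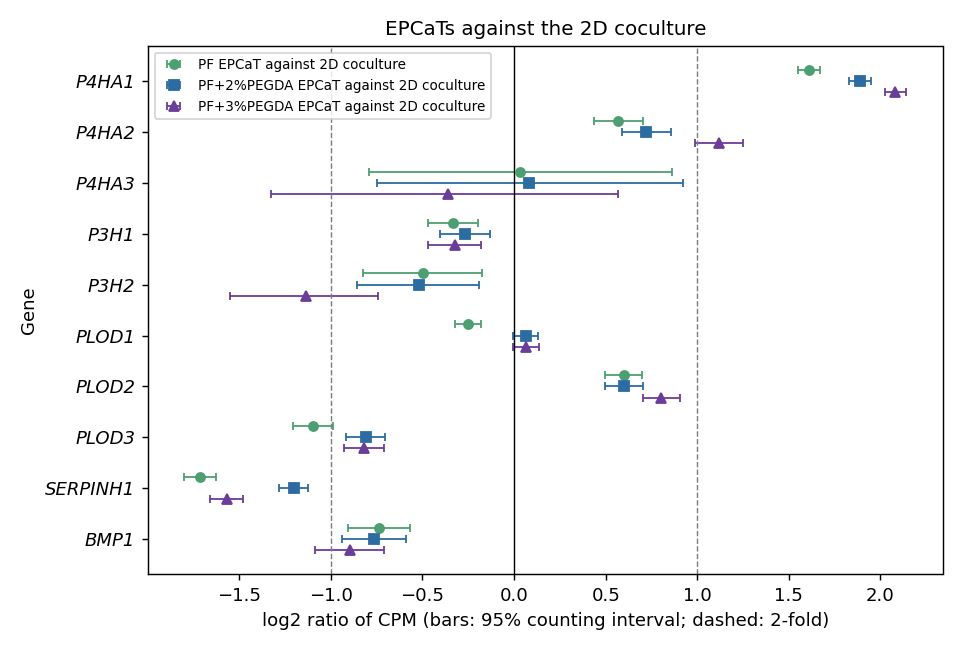
Log2 ratio of each EPCaT to the 2D coculture for the 10 genes, with 95% counting intervals; dashed lines mark 2-fold. P4HA1 lies beyond 2-fold higher and SERPINH1 beyond 2-fold lower in all 3 EPCaTs, and the intervals of P4HA3 span 0.

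The prolyl 3-hydroxylases were modestly lower. P3H1 (chromosome 1, 42746335 to 42767084, minus strand) works in a complex with CRTAP and the isomerase cyclophilin B, encoded by PPIB. It measured 51.0, 53.3 and 51.4 CPM in the PF, 2% and 3% tissues and 64.3 CPM in 2D. The gels were alike within counting error and a little under the flat culture, with log2 ratios of -0.33 (interval -0.47 to -0.20), -0.27 (-0.41 to -0.13) and -0.32 (-0.47 to -0.18).

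Its partners were further below 2D. CRTAP measured 373, 507 and 519 CPM in the tissues and 727 CPM in 2D, which did not pass the size rule. PPIB measured 142, 177 and 170 CPM against 635 CPM, and was 4.46-, 3.58- and 3.74-fold lower. P3H1 gave 13.7, 10.5 and 9.89 reads per 100 reads of CRTAP in the tissues and 8.85 (interval 8.27 to 9.46) in 2D, so the 3 members of the complex did not keep the same proportions.

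P3H2 (chromosome 3, 189956728 to 190122437, minus strand) acts mainly on basement membrane collagens. It measured 8.58, 8.44 and 5.50 CPM in the PF, 2% and 3% tissues (143, 131 and 75 counts) and 12.1 CPM (178 counts) in 2D. PF+3%PEGDA was the lowest library and PF and PF+2%PEGDA could not be told apart. In PF+3%PEGDA P3H2 was 2.20-fold lower than 2D (interval 1.67 to 2.93), the only tissue where it passed the size rule. COL4A1, a basement membrane chain, measured 30.8, 36.5 and 30.3 CPM against 208 CPM in 2D, and was 6.76-, 5.70- and 6.87-fold lower. Other basement membrane chains went the opposite way: COL4A5 measured 80.0, 58.7 and 56.2 CPM against 22.0 CPM, and COL4A6 15.8, 5.28 and 3.74 CPM against 1.70 CPM, and both were called higher in every gel.

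The lysyl hydroxylases went 3 different ways. PLOD1 (chromosome 1, 11934205 to 11975538, plus strand), which modifies lysines in the helix, measured 190, 236 and 237 CPM in the PF, 2% and 3% tissues and 226 CPM in 2D. The PF EPCaT was slightly below 2D, with a log2 ratio of -0.25 (interval -0.32 to -0.18). The ratios of the other 2 tissues were 0.06 and 0.07 with intervals that held 0. With libraries scaled by total counts alone these became -0.07, 0.17 and 0.14, with intervals that exclude 0.

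PLOD2 (chromosome 3, 146069440 to 146163653, minus strand) modifies telopeptide lysines, which gives the more stable crosslinks of fibrotic and tumour collagen, and is a textbook target of hypoxia-inducible factor (HIF), as P4HA1 and P4HA2 are. It measured 130, 131 and 150 CPM in the PF, 2% and 3% tissues and 86.0 CPM in 2D. Every tissue was above 2D, and PF+3%PEGDA was the highest. The log2 ratios were 0.60 (interval 0.50 to 0.70), 0.60 (0.50 to 0.70) and 0.80 (0.70 to 0.91), all short of 2-fold.

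PLOD3 (chromosome 7, 101205977 to 101218420, minus strand) hydroxylates lysines and also adds sugars to them. It measured 62.9, 76.7 and 76.2 CPM in the PF, 2% and 3% tissues and 135 CPM in 2D. All 3 tissues were well below 2D, with PF the lowest. It was 2.14-fold (interval 1.98 to 2.31), 1.75-fold (1.63 to 1.89) and 1.77-fold (1.64 to 1.91) lower, so it was called in PF alone, and with libraries scaled by total counts that log2 ratio was -0.92 and was not called. ZNHIT1 shares 7.56% of the PLOD3 exon bases on the opposite strand. ZNHIT1 had 793, 1507, 1322 and 1794 counts in the PF, 2%, 3% and 2D libraries, and its part in the PLOD3 values was not tested.

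Within the PLOD family, PLOD2 had a larger share of the reads and PLOD3 a smaller one in the tissues than in 2D. PLOD2 took 34.0% (interval 32.8 to 35.2), 29.4% (28.3 to 30.5) and 32.4% (31.3 to 33.6) of the family's reads in the PF, 2% and 3% tissues and 19.3% (18.3 to 20.2) in 2D. PLOD3 took 16.4%, 17.3% and 16.5% in the tissues and 30.1% (29.02 to 31.26) in 2D. PLOD1 held 49.6% to 53.3% in all 4 libraries. There were 2.07, 1.70 and 1.97 reads of PLOD2 for each read of PLOD3 in the PF, 2% and 3% tissues and 0.639 (interval 0.595 to 0.686) in 2D. Per kilobase the difference between libraries went the same way, but which of both genes is the higher depends on the length used. With the median coding transcript PLOD3 was above PLOD2 in every library, at 23.2% and 12.8% of the family in PF, 23.4% and 10.6% in PF+2%PEGDA, 22.9% and 12.0% in PF+3%PEGDA, and 37.0% and 6.29% in 2D. That order rests on a PLOD3 median of 809 bases, which partial models shorten, since its longest coding transcript has 2920. For PLOD2 these lengths are 3043 and 3732 bases. With the longest transcript or the merged exons PLOD2 was above PLOD3 in the tissues and below it in 2D.

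FKBP10, an isomerase that assists PLOD2, measured 114, 122 and 101 CPM in the tissues and 170 CPM in 2D. For each read of FKBP10 there were 1.14, 1.07 and 1.49 reads of PLOD2 in the PF, 2% and 3% tissues and 0.505 in 2D. COLGALT1, a collagen galactosyltransferase that acts on hydroxylated lysine, measured 140, 121, 119 and 126 CPM in the PF, 2%, 3% and 2D libraries and stayed within 1.11-fold of 2D.

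**Figure D3:**
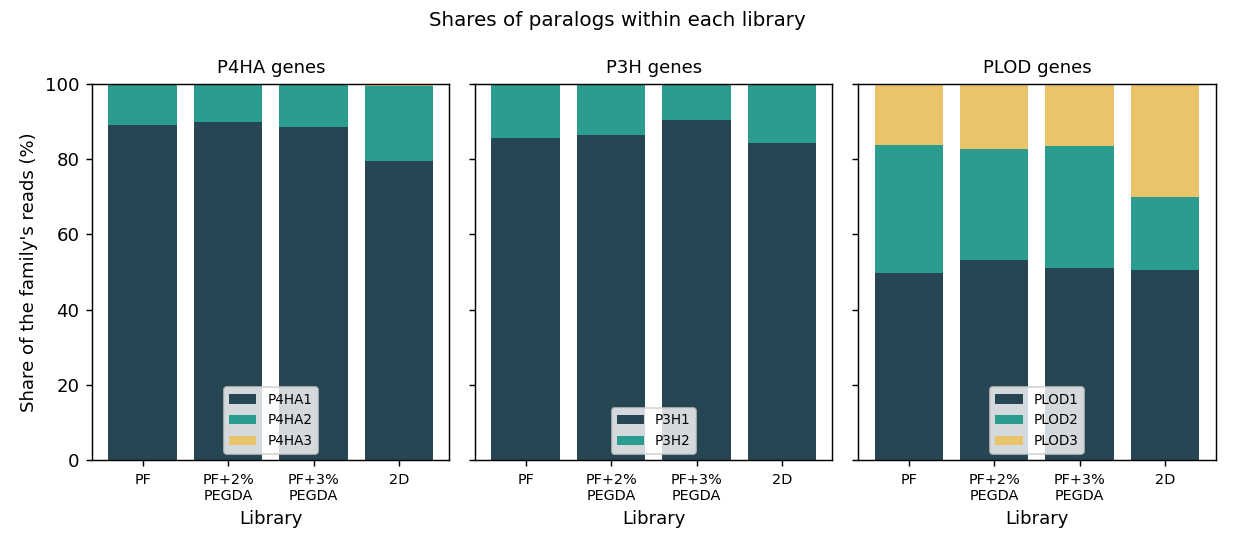
Share of each paralog in the reads of its family within a library, in percent, for the P4HA, P3H and PLOD genes. P4HA1 takes 88.6% to 89.8% in the EPCaTs and 79.6% in 2D, and PLOD3 16.4% to 17.3% and 30.1%.

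Since several of these genes are known HIF targets, the 250 bases before each start site in RefSeq (GRCh38.p14) were searched on both strands for ACGTG and GCGTG, the core letters that HIF binds. Of 35116 promoters of this length, 43.2% hold at least 1 match, and 18.5% hold ACGTG. P4HA1 holds 1 match, PLOD2 holds 3, PLOD1 holds 2 and P3H1 holds 1, while P4HA2 and PLOD3 hold 0. P3H2 and SERPINH1 have more than 1 start site in the table: P3H2 holds 3 matches at one and 1 at the other, and SERPINH1 0 and 3. P4HA3 is not in the table and BMP1 was not searched. The ACGTG matches of 2 genes above 2D and 2 below it are shown in 30-base windows on the strand of the gene, 5′ to 3′, with the match in capitals; CACGT is ACGTG read on the other strand. The windows are chr10:73096935-73096964 (minus) for P4HA1, chr3:146161313-146161342 and chr3:146161367-146161396 (minus) for PLOD2, chr3:190121074-190121103 (minus) for P3H2 and chr11:75562277-75562306 (plus) for SERPINH1.
P4HA1, 86 to 82 bases before the start: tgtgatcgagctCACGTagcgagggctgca
PLOD2, 146 to 142 bases before the start: caaacagtccagACGTGgggcccaggaggg
PLOD2, 200 to 196 bases before the start: cgtgagcctccaCACGTagccgcaggcagc
P3H2, 194 to 190 bases before the start: agaagggagctcACGTGtaaagcgcctcgt
SERPINH1, 184 to 180 bases before the start: gagagcgagagtCACGTcccggcgctagcc
The letters occur before RefSeq start sites of genes that were above 2D (P4HA1, PLOD2) and of genes that were below it (P3H2, SERPINH1). Every window shown lies inside the span printed for its gene. Those spans come from GENCODE and begin further upstream than the RefSeq start sites used, so the windows are not upstream of the whole gene. The P3H2 match is part of CACGTG, which reads the same on both strands and so counts as 2 of its 3 matches. A match describes the sequence only, and binding was not measured.

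SERPINH1 (chromosome 11, 75562056 to 75572783, plus strand) encodes HSP47, a chaperone that binds folded procollagen and escorts it out of the endoplasmic reticulum. It measured 86.3, 123 and 95.4 CPM in the PF, 2% and 3% tissues and 283 CPM in 2D. All 3 tissues were far below 2D, with PF+2%PEGDA nearest to it. It was 3.28-fold (interval 3.09 to 3.49), 2.30-fold (2.18 to 2.43) and 2.97-fold (2.79 to 3.16) lower, at the 4.40, 7.39 and 5.08 percentiles of all genes tested.

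Collagen chains, the clients of HSP47, were set beside it. COL1A1, the main chain of fibroblast collagen, measured 307, 365 and 246 CPM in the tissues and 1742 CPM in 2D, and was 5.67-, 4.77- and 7.07-fold lower. For each 100 reads of COL1A1 there were 28.1, 33.7 and 38.7 reads of SERPINH1 in the PF, 2% and 3% tissues and 16.3 (interval 15.7 to 16.8) in 2D. Against this one chain SERPINH1 was therefore higher in the tissues than in 2D, the opposite of its level in CPM. This was not particular to SERPINH1, because COL1A1 itself was so much lower. Per 100 reads of COL1A1, P3H1 gave 16.6, 14.6 and 20.8 in the tissues and 3.69 in 2D. PLOD3 gave 20.5, 21.0 and 30.9 and 7.73, and BMP1 9.25, 7.64 and 10.3 and 2.72, in the same order. P4HA1 gave 194, 199 and 337 reads per 100 reads of COL1A1 in the tissues and 11.3 in 2D. For each read of SERPINH1 there were 6.93, 5.89 and 8.70 reads of P4HA1 in the PF, 2% and 3% tissues and 0.693 in 2D, so the hydroxylase and the chaperone moved apart in every gel.

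BMP1 (chromosome 8, 22164736 to 22212326, plus strand) encodes a secreted protease that removes the C-propeptide of procollagen and activates lysyl oxidase. It measured 28.4, 27.9 and 25.5 CPM in the PF, 2% and 3% tissues and 47.4 CPM in 2D. The tissues were alike within counting error and below 2D by 1.67-fold (interval 1.48 to 1.88), 1.70-fold (1.51 to 1.92) and 1.86-fold (1.63 to 2.12), short of the size rule. PCOLCE, which enhances the cleavage by BMP1, was further below: 13.9, 12.2 and 15.0 CPM against 63.1 CPM, or 4.54-, 5.17- and 4.21-fold lower. TLL1, a related protease with the same activity, was called higher in all 3 tissues, at 10.3, 10.3 and 11.3 CPM against 1.43 CPM in 2D. BMP1 overlaps a sense-strand transcript, AC105206.1, over 6.17% of its exon bases, and reads there cannot be told apart.

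The order of the 10 genes within a library was compared per kilobase of transcript. P4HA3 was the lowest and P3H2 the next lowest in every library with all 3 ways of setting gene length. P4HA1 was the highest in each EPCaT with the longest coding transcript or the merged exons, and the highest or next to PLOD1 with the median coding transcript. That median is short for PLOD1, P4HA2, PLOD3 and SERPINH1 because partial models enter it. It runs from 809 to 928 bases, against 2920 to 3391 for their longest coding transcripts. With the longest transcript P4HA1 stood at 210, 255 and 292 CPM per kilobase in the PF, 2% and 3% tissues, and the next gene, PLOD1, at 64.7, 80.4 and 80.6. In 2D SERPINH1 led at 83.5 CPM per kilobase, with PLOD1 at 76.9 and P4HA1 at 69.0, though the merged exons put P4HA1 first there.

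The gels were then compared with each other, which asks whether these genes differed with the PEGDA content. None of the 10 genes was called in any of the 3 pairs. The background for higher and lower calls was 2.97% and 5.56% for PF+2%PEGDA over PF. It was 3.63% and 7.51% for PF+3%PEGDA over PF, and 1.85% and 2.41% for PF+3%PEGDA over PF+2%PEGDA. Differences below 2-fold whose intervals exclude 0 were seen, but with 1 library per gel they cannot be told apart from variation between cultures. For PF+2%PEGDA over PF there were 5 such members higher (background 29.9%) and 0 lower (29.3%). PF+3%PEGDA over PF had 6 higher (32%) and 1 lower (31.8%), and PF+3%PEGDA over PF+2%PEGDA had 3 higher (20.1%) and 2 lower (19.5%).

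P4HA2 and P4HA1 had the highest ratios between PF+3%PEGDA and PF, at log2 0.55 (interval 0.44 to 0.66) and 0.47 (0.44 to 0.51). PLOD1 followed at 0.32, PLOD3 at 0.28 and PLOD2 at 0.20. PLOD1 and PLOD3 had their step between PF and PF+2%PEGDA and did not differ detectably between the PEGDA gels, whereas PLOD2 had its step between PF+2%PEGDA and PF+3%PEGDA. P3H2 went the other way, at -0.64 (interval -1.06 to -0.23). SERPINH1 was highest in PF+2%PEGDA: its log2 ratio was 0.51 (0.41 to 0.61) against PF, and PF+3%PEGDA was at -0.37 (-0.47 to -0.26) against PF+2%PEGDA. The intervals of P3H1, P4HA3 and BMP1 held 0 in all 3 pairs with TMM scaling. With total counts alone that of BMP1 in PF+3%PEGDA over PF excluded 0, while those of SERPINH1 in the same pair (log2 0.04) and of P4HA2 in PF+2%PEGDA over PF (0.08) came to hold 0.

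**Figure D4:**
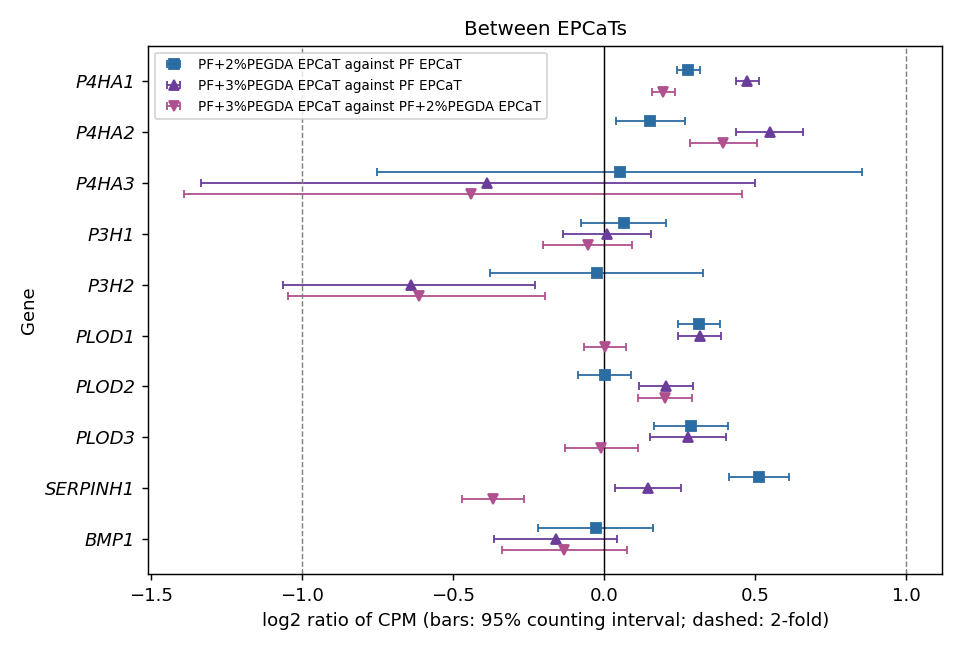
Log2 ratios between EPCaTs for the 10 genes, with 95% counting intervals; dashed lines mark 2-fold. No gene passes 2-fold, P4HA1 and P4HA2 lie at 0.47 and 0.55 for PF+3%PEGDA against PF, and P3H2 at -0.64.

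Other genes of the pathway were read from lists, over the 3 EPCaTs against 2D, where 7.84% of all genes tested were called higher and 6.07% lower in all 3. Of 11 partners of the hydroxylases, 2 were lower, PPIB and P3H3, and 0 higher; the median log2 ratio was -0.58. P3H3, a relative of P3H1 that works with PLOD1, measured 9.06, 10.5 and 9.54 CPM in the tissues and 22.6 CPM in 2D. Of 13 genes of procollagen export and processing, 2 were higher (TLL1 and CREB3L1) and 2 lower (ADAMTS2 and PCOLCE), with a median of -0.28. CREB3L1, a transcription factor of collagen secretion, was 2.41-, 2.96- and 2.92-fold higher. ADAMTS2, which removes the N-propeptide, measured 1.98, 2.58 and 0.734 CPM in the tissues and 21.9 CPM in 2D.

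Of 8 genes of proline and ascorbate supply, 1 was higher, SLC2A1, and 0 lower, with a median of -0.15. SLC2A1 encodes a glucose transporter that also takes up oxidised ascorbate and is a HIF target. The 5 lysyl oxidases, which crosslink the hydroxylated lysines outside the cell, had 0 higher and 0 lower (median -0.46). LOX itself measured 26.2, 53.5 and 69.2 CPM in the PF, 2% and 3% tissues and 28.6 CPM in 2D, so the PEGDA gels were above both other libraries.

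More substrate chains were lower than higher. Of 11 fibrillar collagens 1 was higher and 6 lower in every gel (median -2.32), and of 15 basement membrane and other collagens 2 were higher and 8 lower (median -1.39). In the PF EPCaT alone the fibrillar split was 5 higher to 6 lower. Among those higher, COL24A1 and COL11A2 rest on few counts, with 30 and 24 in PF and 2 and 8 in 2D. COL2A1, the cartilage collagen, was the one higher in every gel, at 449, 515 and 391 CPM in the tissues and 14.1 CPM in 2D. COL5A2, a chain of the thin fibrils that seed type I collagen, measured 513 CPM in PF, 200 and 177 CPM in the PEGDA gels and 230 CPM in 2D, so it was higher in PF alone. Summed over 26 collagen genes, there were 18.3, 20.3 and 29.3 P4HA reads per 100 collagen reads in the PF, 2% and 3% tissues and 2.40 (interval 2.32 to 2.48) in 2D. The PLOD genes gave 10.4, 11.2 and 14.5 and 4.35 in the same order. The P3H genes gave 1.62, 1.56 and 1.78 and 0.745, and BMP1 0.774, 0.703 and 0.796 and 0.462, also above 2D in every tissue. SERPINH1 gave 2.35, 3.10, 2.98 and 2.76, so over all chains its proportion in the tissues lay on both sides of 2D. A large part of these collagen reads came from COL6A1 and COL6A2, whose profiles were near that of SERPINH1. They had 14356 and 12296 of 61211 collagen counts in the PF EPCaT, and 38415 and 35064 of 150664 in 2D. COL2A1 made up 12.2%, 13.0% and 12.2% of the collagen reads in the tissues and 0.137% in 2D.

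HIF targets outside these 10 genes were mostly higher: 17 of 20 passed the rule in every gel and 0 were lower (median log2 ratio 2.35). VEGFA was not called in any gel, at 215, 144 and 160 CPM against 153 CPM, and BNIP3L and ENO1 were called in the PEGDA gels alone. The list shares SLC2A1 with proline and ascorbate supply and EGLN3 with the oxygen-sensing hydroxylases. PGK1, a glycolytic enzyme, was 5.45-, 6.92- and 8.54-fold higher. Of 8 oxygen-sensing and related hydroxylases, which use the same cofactors as the collagen enzymes, 2 were higher and 0 lower (median 0.15). These were EGLN1, at 207, 275 and 294 CPM against 91.8 CPM, and EGLN3, at 38.9, 59.8 and 69.99 CPM against 0.409 CPM, or 6 counts, in 2D. P4HTM, a prolyl hydroxylase of the endoplasmic reticulum membrane that does not act on collagen as its main substrate, measured 65.9, 64.5, 70.3 and 69.7 CPM in the PF, 2%, 3% and 2D libraries.

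General chaperones of the endoplasmic reticulum were mostly lower, like SERPINH1: 0 of 14 were higher and 9 lower in every gel, with a median of -1.61. ERO1A on this list went the other way, at 567, 625 and 739 CPM in the tissues and 317 CPM in 2D. It was called higher in PF+3%PEGDA. HSPA5, the chief chaperone of that compartment, measured 756, 970 and 983 CPM in the tissues and 4088 CPM in 2D. SERPINH1 was less far below 2D than HSPA5, which was 5.41-, 4.21- and 4.16-fold lower.

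**Figure D5:**
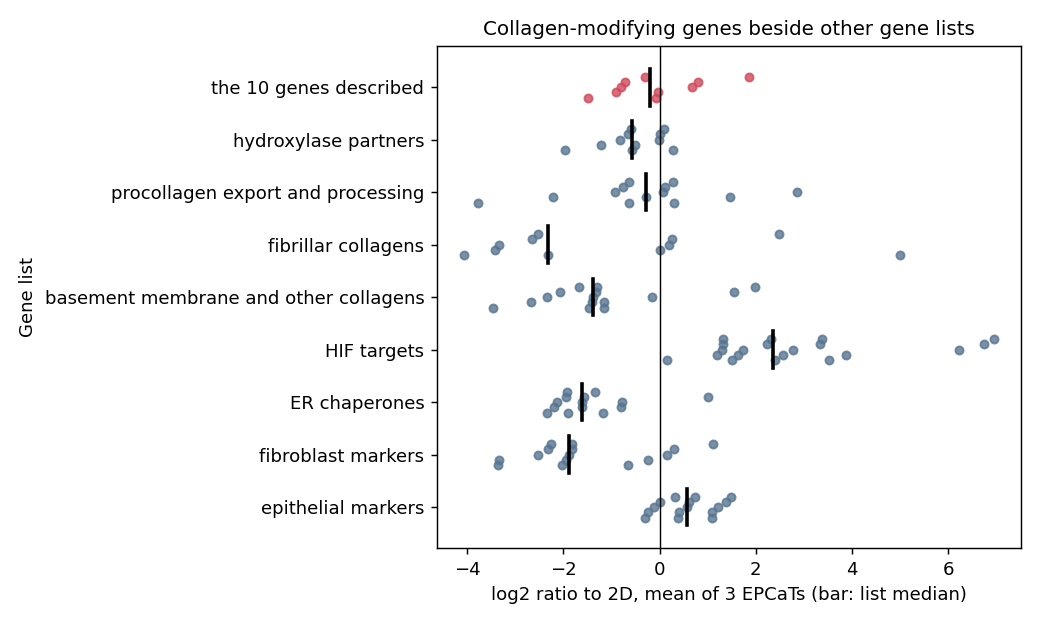
Mean log2 ratio of the 3 EPCaTs to 2D for each gene of 9 lists, with a black bar at the median of the list. The 10 collagen-modifying genes lie on both sides of 0 with a median of -0.20, while HIF targets have a median of 2.35, fibrillar collagens -2.32 and endoplasmic reticulum chaperones -1.61.

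Most fibroblast markers were lower in the tissues than in 2D, in the direction of SERPINH1, PLOD3, P3H1, P3H2 and BMP1 and opposite to P4HA1, P4HA2 and PLOD2. Of 15 fibroblast markers tested, 10 were lower in every gel and 0 higher (median -1.88). The list shares COL1A1, COL1A2 and COL3A1 with the fibrillar collagens. Its summed level was 825, 916 and 696 CPM in the PF, 2% and 3% tissues and 3804 CPM in 2D. The shared collagens carried most of this sum in every library. For PF, 2%, 3% and 2D, COL1A1 stood at 307, 365, 246 and 1742 CPM. COL1A2 stood at 122, 105, 49.6 and 871 CPM and COL3A1 at 105, 102, 77.3 and 468 CPM. The difference in the sum thus mostly repeats that of these collagens. POSTN was the marker left out, with 2, 0, 0 and 15 counts. Not all markers were lower: PDGFRA measured 19.7, 20.4 and 24.9 CPM against 17.4 CPM, TWIST1 22.2, 20.4 and 17.5 CPM against 18.1 CPM, and FBN1 50.6, 60.8 and 62.4 CPM against 68.6 CPM. S100A4 measured 63.9, 98.5 and 98.6 CPM against 39.7 CPM and was called higher in both PEGDA gels. CTNNA1, which PC-3 cells are known to have lost, measured 5.40, 6.18, 8.29 and 33.1 CPM. Of 15 epithelial markers 4 were higher (CDH1, KRT8, ELF3 and ST14) and 0 lower, with a sum of 6374, 7148 and 6704 CPM against 4581 CPM. Much of that difference came from KRT8 (859, 979 and 921 CPM against 429 CPM) and KRT19 (1248, 1865 and 1768 CPM against 752 CPM). Not all were above 2D: KRT7 measured 629, 699 and 618 CPM against 803 CPM, and KRT18 540, 635 and 604 CPM against 646 CPM. ESRP2 was below 2D in the PEGDA gels alone, at 35.1 and 30.3 CPM against 46.3 CPM. In RNA from mixed cells, fewer cells of a type and less RNA per cell cannot be told apart, and the part of the cell mix in the lower values of SERPINH1, PLOD3, P3H1, P3H2 and BMP1 was not tested.

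Markers of cell types that were not seeded were also read. Of 5 endothelial and blood markers tested, 3 were higher in every gel and 0 lower in every gel: PECAM1, KDR and LYZ, with a sum for the 5 of 276, 325 and 383 CPM against 149 CPM. CD68 went the other way, at 53.3, 55.2 and 66.6 CPM against 118 CPM, and was called lower in PF and PF+2%PEGDA. CD14 was not called in any gel. LYZ had few counts, at 36, 24, 23 and 4 in the PF, 2%, 3% and 2D libraries. VWF had 3, 2, 2 and 0 counts in the PF, 2%, 3% and 2D libraries and CLDN5 5, 0, 2 and 0. Of 3 muscle and fat markers 2 were higher (PLIN1 and FABP4) and 1 lower (CNN1), with sums of 61.9, 98.2 and 120 CPM against 7.29 CPM, in the tissues nearly all of it FABP4. MYH11 and MYOD1 had at most 4 counts in any library.

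For the members that ranged over at least 1 log2 unit across the 4 libraries, the genes with the nearest profile were listed, among about 8340 genes with a mean of at least 20 CPM. The measure was the distance between centred log2 levels, over 4 libraries only. Nearest to P4HA1 were NEBL (distance 0.11), PIAS2 (0.12) and PPP1R3B (0.15), and near to P4HA2 were HPS3 and CREBL2 (both 0.07). Nearest to SERPINH1 were ITGB5 (0.11) and the collagen chains COL6A2 (0.11) and COL6A1 (0.14). COL6A1 measured 861, 1135 and 986 CPM in the PF, 2% and 3% tissues and 2617 CPM in 2D, with the same peak in PF+2%PEGDA among the gels as SERPINH1. Nearest to PLOD3 were HSF1, FDX2 and TSEN15 (0.04 to 0.05), and to P3H2 GSS (0.04), UBE2S (0.06) and SIRT7 (0.10).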

How the data were processed

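RNA was sequenced from 3 EPCaT libraries and 1 library of the 2D coculture. The authors deposited 1 table of expected counts, estimated reads per gene that are not scaled between libraries; between 18.2% and 19.9% of values in a library were not whole at a tolerance of 0.01, and all were rounded. Reads were aligned to hg38, per the submitters' processing notes, which name FastQC, STAR and Partek; versions, annotation and counting method are not given in the sources used here. Per the labels' protocols, libraries were made with a TruSeq RNA v2 kit.

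Scaling used edgeR 4.0.16 (R 4.3.3) with its TMM method, after genes that never reached 1 CPM were removed. Log2 ratios used a prior count of 0.5, with exact Clopper-Pearson 95% intervals computed in Python 3.11.15 with scipy 1.17.1, numpy 2.4.6, pandas 2.3.3 and matplotlib 3.10.9. No p-value can be had from single libraries.

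The members and lists were chosen with earlier results of these data known. Named genes were the 10 members, a fixed set of partners and substrates (among them CTNNA1, COL1A1, COL4A1, P4HB, PPIB, CRTAP, FKBP10, COLGALT1, PCOLCE, EGLN3, PGK1 and HSPA5), up to 2 higher and 2 lower genes per list, and the 3 nearest genes of each member with a wide range, of which 1 is not reported here. ZNHIT1 and PPME1 were named for their overlap, and LOX, COL2A1, P4HTM, COL6A1, PDGFRA, TWIST1, FBN1, S100A4, POSTN, VWF, CLDN5, CD68, CD14, VEGFA, BNIP3L, ENO1, ERO1A, MYH11 and MYOD1 after their values were seen. Coordinates, lengths and shared 50-base words come from GENCODE release 29 (GRCh38), promoters from RefSeq. The alternatives tried were scaling by DESeq2 1.42.0 or by total counts, other filters, a prior count of 2, rounding down, a 4-fold rule, other gene lengths (the longest coding transcript was added after seeing the data) and ACGTG alone as the motif.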

Additional observations from a re-analysis of the deposited data

How the results depend on the processing

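No paired analysis was possible because each group has 1 library. Of 60 log2 ratios of the members, none changed sides of the calling rule with DESeq2 size factors, a prior count of 2, no filter or rounding down, and the 54 that a filter of 5 CPM kept also held; that filter dropped P4HA3. With total counts, 45 held, 14 moved beyond their interval and 1 call was lost (PLOD3 in PF against 2D, log2 -0.92), which left 1 member lower there. Total counts moved the median of all genes by 0.18, 0.11 and 0.08 on the log2 scale for the PF, 2% and 3% tissues against 2D, took P3H2 in PF against 2D, P4HA2 in 2% against PF and SERPINH1 in 3% against PF into intervals that held 0, and turned the split of higher to lower genes in PF from 2450 to 1784 into 3007 to 1386. The 4-fold rule left 0 members in either direction in PF, in PF+2%PEGDA and over all 3 EPCaTs, and 1 higher (P4HA1) and 0 lower in PF+3%PEGDA. Over all genes it left 960 higher and 461 lower in PF against 2D, 664 and 395 in PF+2%PEGDA, 675 and 468 in PF+3%PEGDA, and 453 and 218 in all 3; between gels, 96 and 208 for 2% against PF, 99 and 294 for 3% against PF, and 76 and 100 for 3% against 2%. A filter of 5 CPM gave 221 and 429, 290 and 660, and 43 and 118 for the same pairs of gels, where the main filter gave 441 and 825, 539 and 1116, and 275 and 358; with no filter, 418 genes were higher for 3% against 2%. ACGTG alone occurred in 18.5% of promoters. With 1 library per group, variation between cultures is unmeasured, and P4HA3 is limited by depth.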
